A study of Mus musculus with 8 samples.

Results

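Sites of open chromatin that lie inside long genes were examined in unstimulated mouse CD8-positive dendritic cells, the antigen-presenting cells that are specialised in cross-presentation. A site is a merged stretch of DNA that holds an ATAC-seq peak of each of 2 replicates, overlapping by at least 1 bp. Its centre lies inside a protein-coding gene longer than 100 kb and more than 1 kb from either end of any coding gene, on the autosomes or the X chromosome. There were 7432 such sites among 44365 shared regions in all. They made up 16.8% of the 44328 shared regions on these chromosomes, and the gene interiors that could hold them covered 23.1% of the sequence. Another 10024 shared regions lay inside shorter coding genes, 14338 between coding genes and 12534 at coding gene ends.

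The series has 8 samples of mouse CD8-positive dendritic cells. Chromatin immunoprecipitation of IRF3 after poly(I:C), of IRF5 after a CpG oligonucleotide and of IRF9 after interferon-beta, each for 90 min and in 2 samples, was not analysed here. The 2 ATAC-seq samples, the group used below, were left without stimulus, and ATAC-seq uses a transposase to cut and tag accessible DNA. One label names the spleen as the source and another a cell line, no genotype or age is given, and nothing says that the replicates were separate cultures, so the spread between them may be technical. The deposited lists do not give read totals. At the highest-scoring summit of each peak, the fewest reads were 7 in replicate 1 and 9 in replicate 2. Sites below that level were not listed, so weaker accessible sites may be missed at this depth. Of all 21631 coding genes, 47.8% had a shared region within 1 kb of an end. Of 15 marker genes of the cross-presenting lineage, 10 had such a region, among them Irf8, Xcr1, Wdfy4, Cadm1 and Flt3, whereas Batf3, Cd8a, Clec9a, Itgae and Zbtb46 had none. Such regions were also found at 6 of 7 macrophage and monocyte genes, 3 of 6 plasmacytoid, 2 of 7 T cell, 2 of 7 B cell, 1 of 5 NK cell, 1 of 7 neutrophil and 1 of 6 neuronal genes, and the part of other cell types in the sites below was not tested.

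Most of the length of a long gene is intron. Introns can hold enhancers, which are short stretches bound by transcription factors that act on the promoter of the host gene or of a neighbour, and they can hold further promoters from which shorter transcripts of the same gene begin. Many of the longest mammalian genes encode adhesion and synaptic proteins of neurons, and several coincide with common fragile sites, which break when replication is slowed. A site inside a gene is therefore assigned to that gene by position alone.

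Both CpG-rich and CpG-poor sequence occurred at these sites where they fell on an annotated alternative start. That is a transcription start of the host gene, inside it and more than 1 kb from any coding gene end. It can be the only start that the RefSeq start table gives for the gene. The 6 stretches below show both kinds of sequence. They were chosen after their values were seen, run 5′ to 3′ on the strand of the gene, end at the base before the start and come from RefSeq's GRCm38.p6, the build also called mm10. Capitals mark matches on either strand to the letters searched: GGAAGT (ETS factors), GAAANNGAA (IRF), TGANTCA (AP-1), TGTGGT (RUNX), GGGCGG (Sp and KLF) and CCAAT.
Hdac4: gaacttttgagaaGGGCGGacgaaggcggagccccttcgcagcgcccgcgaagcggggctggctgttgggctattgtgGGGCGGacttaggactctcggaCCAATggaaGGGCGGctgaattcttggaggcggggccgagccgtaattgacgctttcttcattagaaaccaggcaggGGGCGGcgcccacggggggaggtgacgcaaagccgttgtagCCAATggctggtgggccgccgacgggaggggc
Runx1: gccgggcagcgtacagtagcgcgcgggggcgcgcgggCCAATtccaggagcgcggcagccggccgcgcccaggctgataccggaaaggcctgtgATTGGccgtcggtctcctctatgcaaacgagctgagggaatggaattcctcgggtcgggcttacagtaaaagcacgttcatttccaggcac
Rarb: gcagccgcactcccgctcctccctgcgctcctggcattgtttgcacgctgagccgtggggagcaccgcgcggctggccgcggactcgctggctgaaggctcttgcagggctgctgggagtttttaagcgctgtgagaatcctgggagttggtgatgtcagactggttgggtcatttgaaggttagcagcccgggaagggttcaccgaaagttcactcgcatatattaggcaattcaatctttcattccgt
Mctp1: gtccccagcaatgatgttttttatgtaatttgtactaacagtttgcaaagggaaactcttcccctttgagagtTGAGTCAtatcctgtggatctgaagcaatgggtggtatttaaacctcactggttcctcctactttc
Dock10: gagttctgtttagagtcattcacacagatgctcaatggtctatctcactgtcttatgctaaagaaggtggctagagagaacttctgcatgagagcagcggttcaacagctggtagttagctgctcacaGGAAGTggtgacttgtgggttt
Elf1: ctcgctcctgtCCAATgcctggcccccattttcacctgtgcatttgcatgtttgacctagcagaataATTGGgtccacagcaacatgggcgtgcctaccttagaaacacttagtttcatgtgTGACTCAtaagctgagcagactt
The stretches of Hdac4, Runx1 and Rarb held 23, 20 and 16 CpG dinucleotides in 250, 185 and 250 bases, and those of Mctp1, Dock10 and Elf1 held 0, 1 and 2 in 139, 150 and 145 bases. In the CpG-rich group Hdac4 had 4 GGGCGG and 2 CCAAT matches, Runx1 had 2 CCAAT matches and Rarb had none of the letters searched. In the CpG-poor group an AP-1 match stood in Mctp1 and in Elf1, and an ETS match in Dock10. Elf1 also had 2 CCAAT matches. A match describes the letters only and is not a bound site.

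Hdac4 encodes a histone deacetylase that represses transcription with MEF2 factors. Its stretch, chr1:92180342-92180591 on the minus strand, lay in a site with fold enrichments over local background of 10.8 in replicate 1 and 10.9 in replicate 2, 15.4 kb inside the outermost start. Runx1, a master regulator of blood formation, is known for a distal and a proximal promoter. Its stretch, chr16:92697330-92697514 on the minus strand, lay in a site with folds of 6.25 and 6.54, 129 kb inside the outermost start. Rarb, a retinoic acid receptor, had folds of 9.61 and 9.38 at chr14:16575477-16575726 on the minus strand, 507 kb inside. Mctp1, a membrane protein with C2 domains, had the highest folds of the 6, 14.8 and 17.8, at chr13:76579458-76579596 on the plus strand, 197 kb inside. Dock10, an activator of Cdc42, had folds of 9.62 and 8.61 at chr1:80665353-80665502 on the minus strand, 93.4 kb inside. Elf1, an ETS family factor of blood cells, had folds of 9.87 and 9.38 at chr14:79515529-79515673 on the plus strand, 34.5 kb inside. All 6 stretches lay 15.4 kb or more inside the outermost start of their gene. Each site holds a peak of both replicates by definition.

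The long genes numbered 2427 of 21631 coding genes, and 1623 of them held at least 1 site, which is 66.9% (exact binomial 95% interval 65.0 to 68.7%, which covers counting error only). Each gene had a median of 2 sites and at most 32. No site was found in 804 genes, 371 genes had 1 site, 628 had 2 to 4, 445 had 5 to 9, 165 had 10 to 19 and 14 had 20 or more. The sites were thus unevenly spread over genes: 344 genes, 14.2% of the long genes, held 50% of all pairs of a gene and a site. Of the 804 genes with no shared site, 611 had no peak in either list and 193 had a peak in at least 1 list that the other did not share. Replicate 1 alone placed a peak in 1661 of the genes and replicate 2 in 1793. Because genes can overlap, 7432 sites gave 7514 pairs, and 33 sites lay in more than 1 long gene, up to 16 genes for a site in a protocadherin gamma cluster.

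Over the 606.7 Mb of interior sequence the density was 1.22 sites per 100 kb, or 1 site in 81.6 kb, against 1.39 peaks per 100 kb in replicate 1 and 1.66 in replicate 2. The median gene had 0.84 sites per 100 kb, with quartiles of 0 and 2.64 and a maximum of 15.1. Medians from each list by itself were 0.953 and 1.27. Over the 2427 genes, the densities from both lists had a Spearman correlation of 0.945 as a description, since the genes share libraries and sequence.

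The number of sites per gene differed much less between length classes than their lengths did. Genes of 100 to 200 kb held 2.68 sites on average, those of 200 to 400 kb 3.63, those of 400 kb to 1 Mb 3.84 and those over 1 Mb 2.61. Over the 2427 genes the Spearman correlation of length with the number of sites was 0.028, and that of length with density was -0.22, given as descriptions. Genes of 100 to 200 kb had 2.02 sites per 100 kb, those of 200 to 400 kb had 1.34, those of 400 kb to 1 Mb had 0.680 and those over 1 Mb had 0.194. The same order held in each list, with 2.33, 1.52, 0.743 and 0.212 peaks per 100 kb in replicate 1 and 2.68, 1.82, 0.972 and 0.297 in replicate 2, so the steps between length classes were larger than the difference between replicates. The share of genes with a site hardly moved with length and was 68.4%, 64.7%, 63.8% and 67.8%. Shorter genes were denser, at 2.35 sites per 100 kb for 50 to 100 kb and 2.81 for 10 to 50 kb, and the sequence between genes had 0.951. Genes over 1 Mb therefore had fewer sites per length than intergenic sequence in both replicates (intergenic peaks, 1.09 and 1.31 per 100 kb). Of 227 genes over 500 kb, 77 had no site, and of 59 over 1 Mb, 19 had none.

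**Figure D1:**
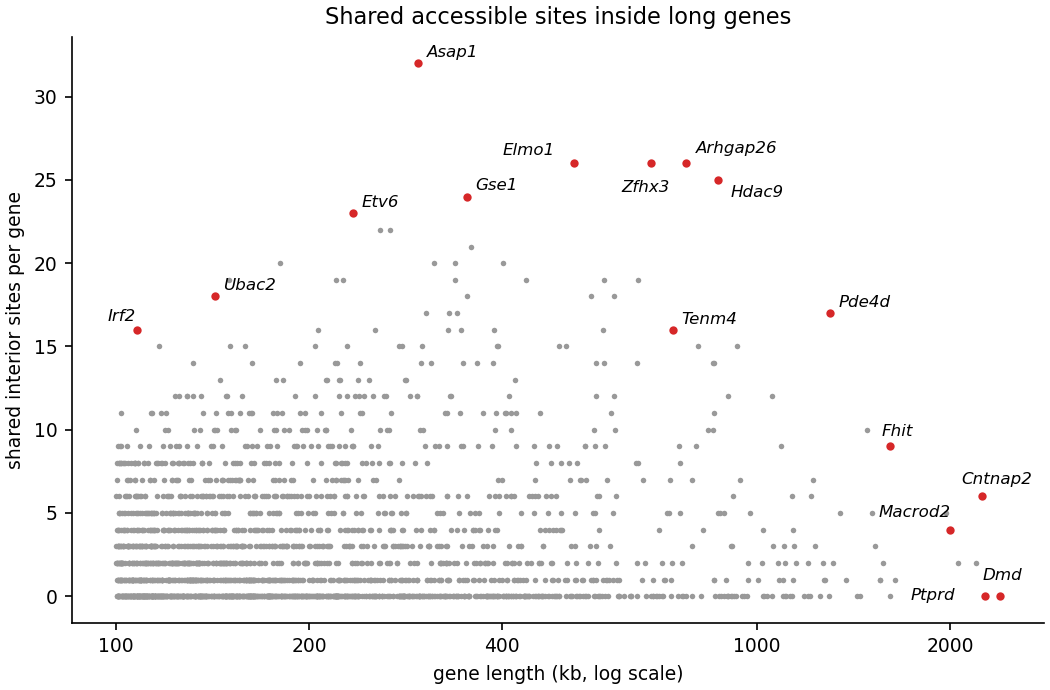
Number of shared interior sites (vertical axis) against gene length in kb (horizontal axis, log scale) for the 2427 long coding genes, 1 point per gene, with named genes in red. Asap1 is the highest point with 32 sites, and Dmd and Ptprd, the longest genes, are at 0.

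**Figure D2:**
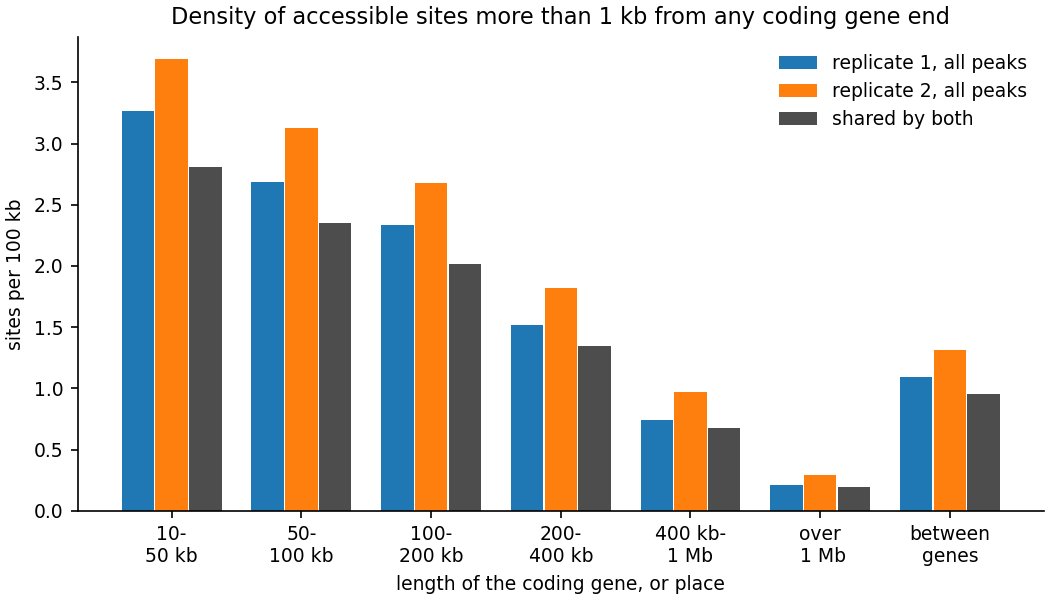
Sites per 100 kb (vertical axis) by gene length class and between genes (horizontal axis), as bars for all peaks of replicate 1, all peaks of replicate 2 and sites shared by both. Shared density falls from 2.81 in genes of 10 to 50 kb to 0.194 in genes over 1 Mb, and each replicate shows the same order.

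The 10 genes with the most sites were led by Asap1, which encodes a GTPase-activating protein for ARF proteins and acts on actin and membrane traffic. Asap1 (chr15:64086840-64382941) had 34 peaks in replicate 1, 39 in replicate 2 and 32 shared sites, 10.9 per 100 kb. Elmo1, a partner of DOCK proteins in the activation of Rac, had 30 and 32 peaks and 26 shared sites. Zfhx3, a zinc finger and homeobox transcription factor, had 28 and 33 peaks and also 26 sites. Arhgap26, another GTPase-activating protein, had 32 and 33 peaks and 26 sites, 6 of them within a second coding gene. Hdac9, a histone deacetylase of the same class as Hdac4, had 30 and 32 peaks and 25 sites. Gse1 had 30 and 29 peaks and 24 sites. Etv6, an ETS family repressor needed for blood formation, had 23 and 28 peaks and 23 sites, 9.89 per 100 kb. Dock10 and Sgms1, the latter a sphingomyelin synthase, had 22 sites each, and Tiam1, an activator of Rac, had 21. Etv6 and Dock10 had as many shared sites as replicate 1 had peaks, and the other genes had fewer. These 10 were chosen by their counts.

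By density, Irf2 came first among genes with 5 sites or more, a rank that depended on the setting. With the better-scoring 50% of each list it had 4.73 sites per 100 kb, below Tg with 8.05, Aim2 with 8.00, Niban1 with 7.43 and Ubac2 with 6.79, and outside any second coding gene Aim2 had 15.6. Irf2, an interferon regulatory factor that binds interferon-responsive elements, had 20 peaks in each replicate and 16 shared sites in 107.7 kb, 15.1 per 100 kb. Its strongest site, chr8:46777987-46778608, had folds of 12.8 and 14.8, with 41 and 62 reads at the summit. Ubac2, a membrane protein of the endoplasmic reticulum, had 13.6 sites per 100 kb. Aim2, a cytosolic DNA sensor that forms an inflammasome, had 13.3. Niban1 had 12.8, and Tg, which encodes the thyroid hormone precursor thyroglobulin, had 11.5. The high count of Tg has a second reading by position, since 10 of its 20 sites lay within the coding gene Sla, an adaptor of antigen receptor signalling that sits inside Tg. Tacc1, Asap1, Lrrfip1, 3110082I17Rik and Tex14 had between 10.1 and 11.0, and 3 of the 9 sites in 3110082I17Rik lay in a second coding gene.

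The 10 longest genes were sparse. Dmd, which encodes the muscle protein dystrophin and spans 2390 kb on the X chromosome, had no peak in either list. Ptprd, a receptor phosphatase of neurons, and Nrxn3, a presynaptic neurexin, also had no peak in either list. Csmd1 had 1 site, Lsamp and Lrp1b 2 each, Macrod2 4, Dlg2 5 and Cntnap2 6. Fhit, a tumour suppressor at a fragile site, had the most of the 10, with 9 sites in 1612 kb and 9 and 10 peaks in the replicates. Their sites ran from weak to strong: the strongest in Macrod2 had folds of 16.9 and 16.1 and the strongest in Dlg2 13.9 and 13.4, while those of Cntnap2 went down to 4.29 and 3.40. In Cntnap2, a neurexin-like adhesion gene of neurons, 5 of the 6 sites lay in the 3′ part of the gene, 2128 kb or more from its start.

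**Figure D3:**
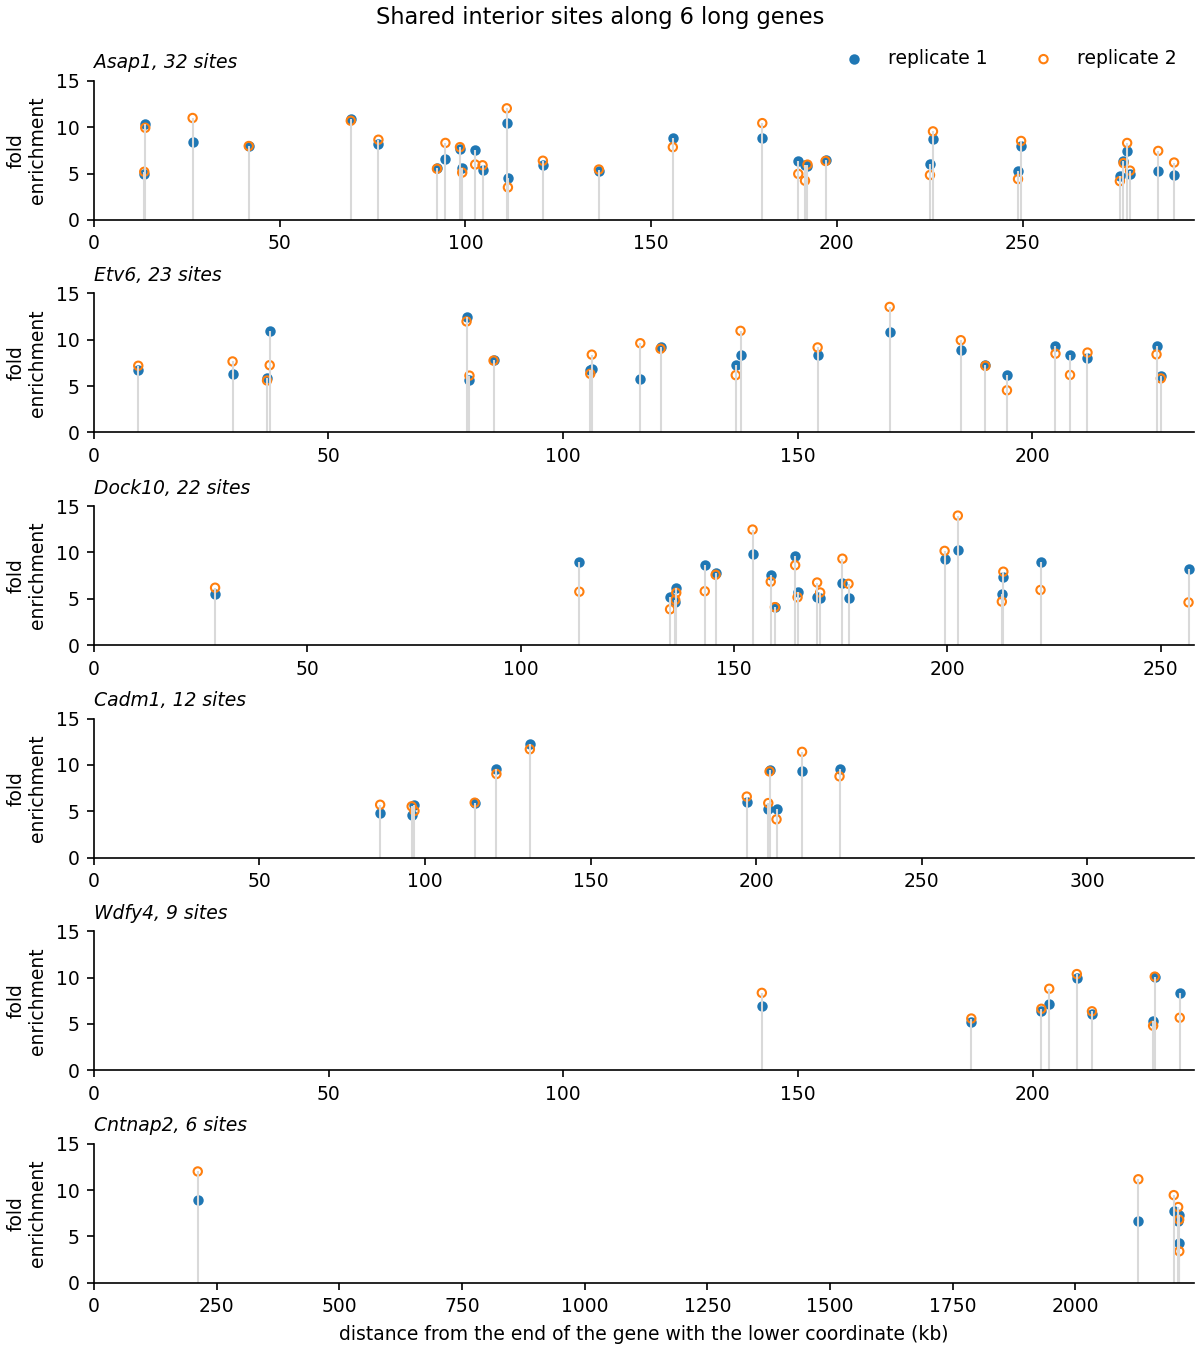
Fold enrichment (vertical axes) of each shared interior site against distance in kb from the gene end with the lower coordinate (horizontal axes) in 6 genes, with filled points for replicate 1 and open points for replicate 2. Sites run along the whole of Asap1 and Etv6, 20 of 22 lie from 135 kb onward in Dock10, and Cntnap2 has 1 site near its start and 5 near its other end.

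Sites were denser toward the start of the gene. In the 1864 long genes whose strand is known from the RefSeq start table, the stretch 1 to 2 kb inside the outermost start had 6.40 sites per 100 kb, from 117 sites. The density was 3.0 at 2 to 5 kb, 2.27 at 5 to 10 kb, 2.16 at 10 to 20 kb and 1.84 at 20 to 50 kb, against 0.921 in the middle, more than 50 kb from both ends. At the other end it was 1.26 at 1 to 2 kb, 1.64 at 2 to 5 kb, 1.62 at 5 to 10 kb, 1.57 at 10 to 20 kb and 1.5 at 20 to 50 kb. The 1 to 2 kb bin had 6.95 times the density of the middle, with 7.61 against 1.03 peaks per 100 kb in replicate 1 and 9.90 against 1.26 in replicate 2. These bins mix gene lengths, since each gene adds about as much to a bin near its ends and longer, sparser genes make up more of the middle.

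Within length classes the ratio at the start was smaller. The 1 to 2 kb bin had 4.14 times the density of the middle in genes of 100 to 200 kb (7.56 against 1.83 per 100 kb, 83 sites), 4.42 times in genes of 200 to 400 kb (27 sites) and 4.83 times in genes of 400 kb to 1 Mb (only 7 sites). Each list by itself gave ratios of 4.35, 4.35 and 5.70 in replicate 1 and 4.51, 5.68 and 6.24 in replicate 2. At the other end, genes of 100 to 200 kb had 0.906 to 0.975 times the density of the middle in the 5 bins, so no excess was seen there. In genes of 200 to 400 kb the 5 bins ran from 0.649 to 1.25 times the middle, and in genes of 400 kb to 1 Mb from 0.689 to 2.29 times. Genes over 1 Mb had no site in the 1 to 2 kb bin.

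**Figure D4:**
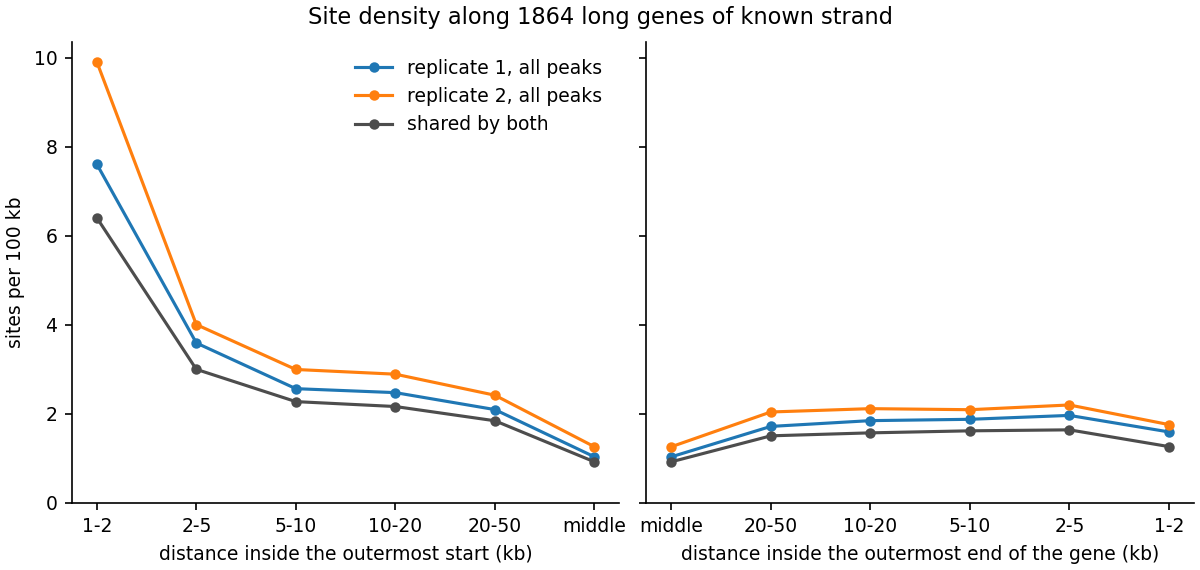
Gene lengths are mixed in this plot of sites per 100 kb (vertical axis) by distance in kb inside the outermost start (left) and inside the other end (right) of 1864 long genes, with lines for all peaks of each replicate and for shared sites. The shared line falls from 6.40 next to the start to 0.921 in the middle and stays between 1.26 and 1.64 within 50 kb of the other end.

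Genes with an accessible outer start held more interior sites. The outermost start is taken here as the upstream edge of the gene, whether or not the start table has a start there. A shared region lay within 1 kb of the outermost start in 778 of the 1864 genes, and 86.8% of these had an interior site, against 55.0% of the other 1086. Their density was 2.17 sites per 100 kb against 0.824, with 2.47 against 0.934 peaks in replicate 1 and 2.88 against 1.14 in replicate 2. The genes with an accessible start were shorter, with a median of 148 kb against 190 kb. Within genes of 100 to 200 kb the densities were 2.64 and 1.53, within 200 to 400 kb 2.16 and 0.990, and within 400 kb to 1 Mb 1.47 and 0.479. Over 1 Mb they were 0.193 and 0.189, with 4 and 41 genes. The difference was thus present in each class up to 1 Mb and in both replicates, and not in the few genes beyond it.

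The start table gives 1066 alternative starts in 727 long genes, and 207 of the 300-base windows around them overlapped a site, which is 19.4% (exact binomial 95% interval 17.1 to 21.9%). The interval treats windows as separate draws, although some overlap each other and share a site. Starts of long genes within 1 kb of any coding gene end overlapped a shared region in 42.9% of 1635 windows, from 1496 genes. Starts of noncoding genes inside long genes overlapped a site in 4.20% of 1429. The table covers 1864 long genes, so an alternative start can be the only one given for its gene. Alternative starts with a site had a median GC content of 65% and 22 CpG dinucleotides in 300 bases, against 51% and 6 in those without. The sequences of Hdac4 and Runx1 above are of the CpG-rich kind and those of Mctp1 and Dock10 are not. GGGCGG stood in 63.3% of the windows with a site, 29.1% of those without and 35.9% of all 32619 start windows in the table. GGAAGT stood in 24.6%, 16.2% and 23.9%. TGANTCA stood in 5.80%, 8.27% and 7.85%, GAAANNGAA in 6.28%, 8.85% and 8.53%, TGTGGT in 12.1%, 14.6% and 16.6%, and CCAAT in 32.9%, 35.04% and 37.6%. TATAAA, the letters of a TATA box, stood in 5.31%, 13.7% and 13.7%. Windows with a site thus held GGGCGG more often and TATAAA less often than windows without and than all start windows, as a description of these windows. For GGAAGT the windows with a site were near the share over all start windows, and those without a site were below it. Starts of long genes within 1 kb of a coding gene end that overlapped a shared region held GGGCGG in 78.2% and TATAAA in 4.28%. These lay further from the shares over all start windows, so the contrast was not particular to alternative starts. The windows were not matched for GC content.

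Only a small part of the sites lay at any of these starts. The 207 sites at an alternative start of the host gene were 2.79% of the sites, in 181 genes and a median of 17.9 kb inside the outermost start. Counting the starts of noncoding and of other coding genes gave 257 sites, 3.46%, and 7175 sites, 96.5%, overlapped no start window in the table. The windows are themselves a very small part of the interior, with 1066 at alternative starts and 1429 at noncoding starts, each of 300 bases, in 606.7 Mb. A small share of the sites is therefore not a low density at these starts. Sites at an alternative start were wider, with a median of 258 bp against 189 bp for sites at no start. Their folds were alike, with medians of 7.30 and 7.96 in the 2 replicates against 7.28 and 7.90.

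An inaccessible outer start did not mean an empty gene. The start table can lack a start at the upstream edge of a gene, so an inaccessible outer start need not be a closed promoter. Among the 1086 genes without a shared region there, 64 had 10 sites or more. They included Zfhx3 with 26, Hdac9 with 25, Gse1 with 24, Dock10 and Sgms1 with 22, Tiam1 with 21 and Med12l, a Mediator subunit, with 20. Of the 64, 50 have an annotated alternative start, and in 30 of those, 60%, a site overlapped it. Over all 505 genes with an alternative start and no accessible outer start the share was 25.5%. The 64 were chosen by their number of sites, which includes sites at these starts, so a higher share is partly built in. These 30 include Zfhx3, Gse1, Dock10, Sgms1, Tbxas1 (thromboxane synthase), Mctp1, Hdac4 and Aim2.

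Density also went with an accessible alternative start. Of the 505 genes with an alternative start in the table and no accessible outer start, 129 had a site at an alternative start, and these had 3.25 sites per 100 kb against 0.676 in the other 376. Leaving out the sites at the alternative starts themselves, the 129 genes had 2.70 per 100 kb and a median of 4 sites, against a median of 1. Of the 222 genes with an accessible outer start, 52 had a site at an alternative start, with 3.22 per 100 kb against 2.14 in the other 170, and 2.67 without the sites at those starts. Here the medians were close, with 5 other sites in the 52 genes against 4 sites in the 170. Median lengths were 154 and 211 kb in the first pair of groups and 162 and 179 kb in the second. So genes reached 2.67 to 2.70 other sites per 100 kb with a site at an alternative start, whether or not the outermost start was accessible. The groups were formed from the same peaks, so these densities are a description. In both groups the alternative start can be the only start in the table for its gene.

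The 7 gene lists differed widely in density. They were chosen by hand with earlier results of these data known, so their differences are a description. Of 56 long genes of immune cell membranes and signalling, 51 had a site, and their median was 3.14 per 100 kb, beside 66.9% and 0.84 over all long genes. Lyn, a Src family kinase, had 12 and 14 peaks and 11 sites, 9.86 per 100 kb. Map4k4 had 9.72, St6gal1, which adds sialic acid to glycans, 8.98, and Ptprc, the leukocyte antigen CD45, 6.31. Itpr1 and Itpr2, calcium channels of the endoplasmic reticulum, had 20 and 15 sites. Cadm1 and Wdfy4, which mark cross-presenting dendritic cells, had 12 and 9 sites. Igf1r, Kcnq5, Mertk, Plcb1 and Tgfbr3 had none, and Plcb1, a phospholipase C, had 0 peaks in replicate 1 and 3 in replicate 2.

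Among haematopoietic transcription factors and chromatin regulators 48 of 54 had a site, with a median of 2.21 per 100 kb. Beside Zfhx3 and Etv6 the highest counts were 19 in Rarb, 18 in Arid1b, a chromatin remodelling subunit, and 18 in Foxp1. Bach2, a repressor in lymphocytes, had 14 sites, Tcf4, the factor of plasmacytoid dendritic cells, 11, and Mef2c 11. Elf1 had 8.06 per 100 kb, Nfatc1 7.63, Fli1 7.55 and Nfatc2 7.30. Runx1 had 10 peaks in each replicate and 7 shared sites, the strongest at chr16:92653931-92654243 with folds of 11.1 and 12.2. Zeb2, which opposes the cross-presenting fate, had 1 and 3 peaks and 1 site, chr2:45112119-45112289, with folds of 5.45 and 7.57. Genes with no site included Ebf1, Ikzf2, Klf12, Lef1 and Rora, and Rora, a nuclear receptor of 734.8 kb, had no peak in either list.

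Cytoskeleton and migration regulators had sites in 60 of 69 genes and a median of 2.10 per 100 kb. Dock4 had 20 sites, Macf1, which links actin to microtubules, 19, and Vav3, an activator of Rac, 16. Dock2, which drives leukocyte migration, had 10 sites and 1.81 per 100 kb, while Dock1, Dock3 and Dock9 had none. Arhgap24 had no peak in either list. The list named very large genes used by most cells had sites in 41 of 44 genes and a median of 1.81. Hdac9 and Ubac2 were at the top, Mbnl1, a splicing factor, had 7.73 per 100 kb, and Herc2 and Scaper were among those at 0. The name is a label only. Use across cells was not measured, and Ubac2, at 142 kb, was shorter than the median of 172 kb over all long genes.

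Neuronal adhesion, synapse and channel genes had a site in 68 of 123 genes and a median of 0.091 per 100 kb. Tenm4, an adhesion gene, had 17 and 21 peaks and 16 sites, Adgrl3, an adhesion receptor, had 15, and Celf2, an RNA-binding protein that blood cells also express, had 14. Genes of muscle, kidney, epithelia and matrix had a site in 20 of 47 and a median of 0. Col25a1, a collagen, led them with 13 sites, followed by the glypican Gpc6 with 12 and the cadherin Fat3 with 11, while Ttn, Lama2 and Dmd were among those with none. Genes of common fragile sites had a site in 17 of 19 and a median of 0.573. Rad51b, which serves homologous recombination, had 18 sites and Immp2l 15, while Dpyd and Dmd had none.

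The lists also differ in length, with a median of 718 kb for neuronal genes, 871 kb for fragile-site genes, 393 kb for muscle, kidney, epithelial and matrix genes and 172 kb over all long genes. Within genes of 400 kb to 1 Mb, the density over neuronal genes was 0.393 per 100 kb in 62 genes, beside 1.88 over 9 haematopoietic regulators, 1.62 over 16 cytoskeleton genes, 1.62 over 9 very large genes used by most cells, 1.11 over 11 fragile-site genes, 1.00 over 7 immune membrane and signalling genes, 0.379 over 16 genes of muscle, kidney, epithelia and matrix and 0.678 over all 293. Replicate 1 gave 0.408 for the neuronal genes, 2.01 for the haematopoietic regulators, 1.90 for the cytoskeleton genes and 0.741 over all, and replicate 2 gave 0.599, 2.53, 2.27 and 0.970. In the 100 to 200 kb class, immune membrane and signalling genes had 4.71 sites per 100 kb in 26 genes, beside 2.01 over all 1437. Among genes of 400 kb to 1 Mb, neuronal genes were thus below and haematopoietic and cytoskeleton genes above the level over all in both replicates. Very large genes used by most cells were also above it, with 1.89 and 2.27, and genes of muscle, kidney, epithelia and matrix below it, with 0.400 and 0.589. The lists share 7 genes, and together they cover 405 of the long genes.

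**Figure D5:**
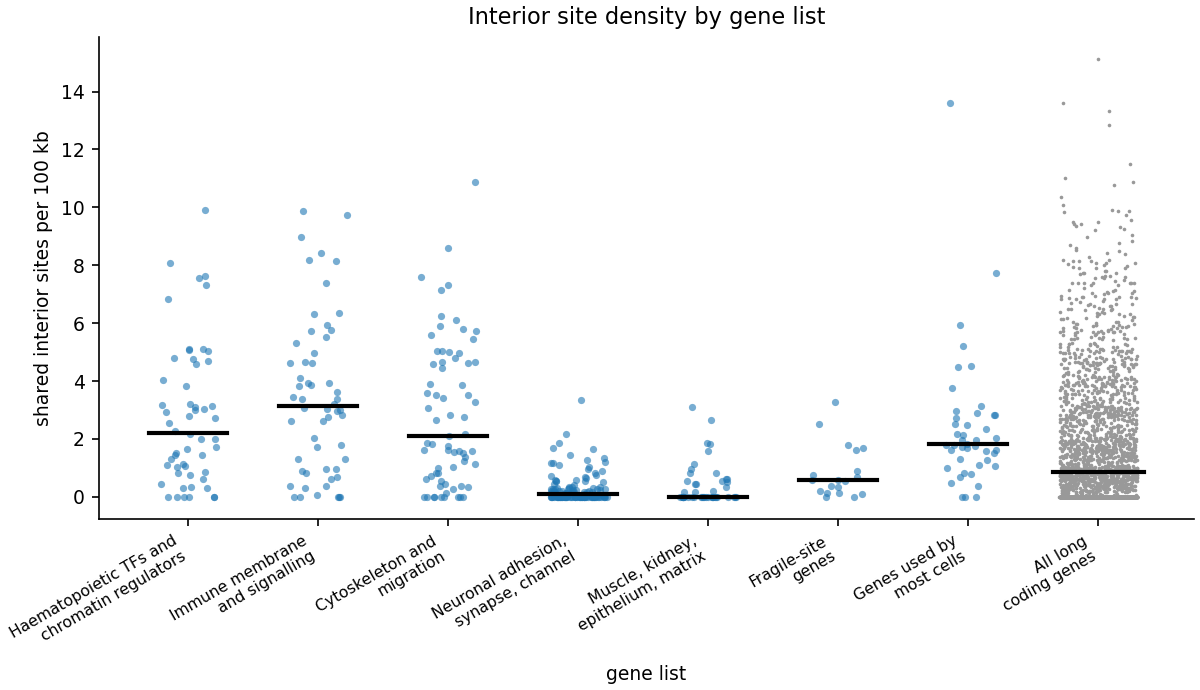
Shared interior sites per 100 kb (vertical axis) for the long genes of each list and for all 2427 long genes (horizontal axis), 1 point per gene, with a black line at the median. Medians run from 0 for muscle, kidney, epithelial and matrix genes to 3.14 for immune membrane and signalling genes, beside 0.84 over all.

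Neighbouring sites were 11.1 kb apart at the median, over 5891 gaps in the 1252 genes with 2 sites or more. Even spacing of each gene's own sites over its interior would give a gap of 31.9 kb in the median gene, where the median gap was 14.0 kb. The gap was below that of even spacing in 981 of the 1252 genes, with a median ratio of 0.541, and whether this differs from random placement was not tested. Gaps under 1 kb made up 15.3%, gaps under 5 kb 31.8% and gaps over 50 kb 14.5%. The densest stretches of 20 kb held 8 sites, in Ubac2, Dock10 and Asap1. In Dock10 they spanned chr1:80659562-80677948 and include the alternative start printed above. Tg, Hecw2, Tbxas1, Sgk1 and Pla2g4a had 7 in 20 kb. In Myo3a, a myosin of sensory cells, all 6 shared sites lay within 2639 bp, chr2:22587560-22590198, in a gene of 390750 bp. Runs of 5 neighbouring sites at nearly even distances, with an SD of the gaps under 0.15 of their mean, occurred in 4 stretches, in Ctnnd2, Lims1 and Tbxas1.

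The sites were of ordinary strength. Their median fold was 7.28 in replicate 1 (quartiles 5.97 and 9.12) and 7.90 in replicate 2 (6.25 and 10.1), with medians of 16 and 24 reads at the summit. Sites between genes had medians of 7.28 and 7.79, sites inside shorter genes 7.14 and 7.31, and sites at gene ends 7.24 and 7.48. Interior sites had a median width of 190 bp, beside 246 bp at gene ends, 186 bp between genes and 184 bp inside shorter genes. Over the 7432 sites the folds of both replicates had a Spearman correlation of 0.725, a description over sites of the same 2 libraries. The interiors of long genes held 8462 peaks in replicate 1 and 10090 in replicate 2. Of these, 89.8% in replicate 1 (exact binomial 95% interval 89.1 to 90.4%) and 73.9% in replicate 2 (73.0 to 74.7%) overlapped a peak of the other list. The intervals cover counting error only. At gene ends the shares were 92.8% and 83.4%, and between genes 88.9% and 72.6%. Peaks without a partner were weaker, with median folds of 5.88 and 5.71 against 7.23 and 7.90.

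The strongest sites, ranked by the lower of their score percentiles in the replicates, lay in 5 genes that held between 1 and 7 sites. The site in Chl1, a neural adhesion gene, had folds of 40.4 and 34.96 with 117 and 124 reads at chr6:103649032-103649313, and it was the only shared site of the gene. In 2210408I21Rik, chr13:77438882-77439075 had folds of 40.8 and 35.7 and was 1 of 2 sites. The only site of Cdk5rap2, which encodes a centrosome protein, lay at chr4:70378096-70378284 with folds of 34.8 and 35.6. Peak1 had a site with folds of 21.98 and 19.98 among 7, and Kctd16 one with 22.5 and 23.1 among 6. These 5 were chosen by their scores, and the lists do not say whether regions prone to excess reads were removed.

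The X chromosome was sparse. Its 114 long genes had 0.446 sites per 100 kb and 40.4% had a site, beside 0.957 to 1.75 sites per 100 kb and 57.6 to 81.8% on the 19 autosomes. Each replicate by itself gave 0.504 and 0.762 peaks per 100 kb on X, and the lowest autosomal values were 1.08 and 1.30. All shared regions, wherever they lay, numbered 4.48 per Mb on X and 11.3 to 24.5 on the autosomes, so the low density there was not limited to long genes. The median length of the long genes on X was 167 kb.

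Some sites lay near other annotated genes. A second coding gene covered 127 sites, 1.71%, and 289 sites, 3.89%, were within 1 kb of an end of a noncoding gene, 216 of them near a long noncoding RNA. Such stretches are a small part of the interior and were not poorer in sites. Density was 1.216 per 100 kb outside second coding genes and 1.200 with noncoding gene ends left out, against 1.225 in all. Of 165 microRNA hairpins inside long genes, 9 lay within 1 kb of a site, and the hairpins of Mir6541 in Wdfy2 and Mir8090 in Cfap43 overlapped one. At the limits of the rule, 32 sites 1 to 1.1 kb from a gene end had median folds of 6.38 and 6.12, and 29 shared regions just outside it, 0.9 to 1 kb from an end, had 6.37 and 7.12. The 142 genes just over 100 kb in length had 2.74 sites per 100 kb, and 157 genes just under it, left out by the rule, had 2.29.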

How the data were processed

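ATAC-seq of 2 samples gave a deposited peak list each. Per the submitters' processing notes, Trimmomatic, BWA 0.7.17, Picard 2.8.1, HOMER 4.9.1 and MACS2 were used on mm10, with no settings. Transposase shift, duplicate removal and blacklisting are not given in the sources used here, and each can change which weak peaks are listed. In the layout of the deposited files, the fold enrichment is a ratio to local background, the −log10 p and −log10 q compare the summit with that background, and the score in the deposited lists is a whole number made from the −log10 q. The lowest listed −log10 q was 3.00 in both lists. Summits of a peak were joined, and overlapping peaks were merged into shared regions. The fold printed for a site is that of its highest-scoring peak in each replicate. Reads at summits were worked out from the authors' fold and Poisson p, and the p came back within 0.002 for 100% of regions.

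Genes, strand and start windows (250 bases before and 50 after a start) came from RefSeq tables of GRCm38.p6, and strand was known for 1864 of 2427 long genes. Density is sites over interior length, with the 1 kb around coding gene ends left out of the length. Exons and introns were not assigned, and motifs were searched only in start windows, since a genome was not used here. No tests across samples were possible with 1 group. The calculations were tested on simulated data and made with Python 3.11.15, numpy 2.4.6, scipy 1.17.1, pandas 2.3.3 and matplotlib 3.10.9.

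Named genes are the 10 with most sites, the 10 densest with 5 sites or more, the 10 longest, in each of 7 lists the 3 with most sites and the longest with none, and the 5 strongest sites. Others, among them Lyn, Runx1, Cadm1, Wdfy4, Zeb2, Tcf4, Bach2, Foxp1 and further list members, were named after their values were seen. The sites and lists were chosen with earlier results of these data known. Alternatives covered the overlap rule, the peaks used, each replicate alone, gene length and end distance.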

Additional observations from a re-analysis of the deposited data

How the results depend on the processing

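Using the better-scoring 50% of each list gave 3368 interior sites, 0.555 per 100 kb, a median of 0.149 per gene and 135 alternative starts with a site. Genes over 50 kb gave 11407 sites in 3154 genes, 1.47 per 100 kb and a median of 1.21, and genes over 200 kb gave 3595 sites in 640 genes, 0.862 per 100 kb and a median of 0.427. The union of both lists gave 1.80 per 100 kb and a median of 1.44. Leaving out 1 replicate gave 1.39 to 1.66 per 100 kb and medians of 0.953 to 1.27. The density 1 to 2 kb inside the start, 6.95 times that of the middle with gene lengths mixed, was 6.15 times with the better-scoring 50%, 7.36 to 7.86 times with 1 replicate left out and 7.89 times in the union. The density ratio between genes with and without an accessible start, 2.63, was 2.52 to 2.65 with 1 replicate left out. These 2 ratios, their split by gene length and the count of alternative starts were added after seeing the data. The number of listed genes with a site stayed within 1.5 times its value for all 7 lists under the alternatives run on them. Of the 10 genes with most sites, 6 to 9 stayed in the top 10. No paired analysis was possible because both samples belong to 1 group. Depth limits the sites listed. No peak had a highest-scoring summit under 7 reads in replicate 1 or under 9 in replicate 2.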
